A study of Danio rerio with 20 samples.

Results

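Purine nucleotide synthesis was followed in zebrafish (Danio rerio) larvae through 10 genes: the inosine monophosphate (IMP) dehydrogenase genes impdh1b, impdh1a and impdh2, the guanosine monophosphate (GMP) synthetase gene gmps, and ppat, gart, pfas, paics, adsl and atic of the route that builds IMP. The genes were chosen by symbol, and all 10 were found, each under 1 Ensembl identifier, among the 32520 genes of the count table. impdh1b was picked because its transcript was lower under the October extract, so its values in October libraries are given as a description with no test. The other 9 are further genes of the same pathway. All 10 passed the filter on low counts, which kept 23121 genes.

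Cells build purine nucleotides on a ribose phosphate, step by step, until the ring of IMP is closed. IMP then leads to AMP or, through IMP dehydrogenase and GMP synthetase, to GMP, and IMP dehydrogenase is the step that limits guanine nucleotide supply. Fish larvae use these products for RNA and DNA, for the guanine crystals of iridophores and for pteridine pigments made from GTP, while photoreceptors signal through cyclic GMP. In humans, mutations in IMPDH1 cause a form of retinitis pigmentosa, and in zebrafish, mutants in paics and gart have defects of pigment and eye.

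The larvae were wild type and were taken whole at 5 days post fertilisation. Exposed larvae (SEC) had been kept from day 4 with an extract of secondary effluent of a wastewater treatment plant, at a strength labelled 20x, and control larvae (CTRL) were kept beside them. Extracts of 2 sampling campaigns, June (JUN20) and October (OCT20), gave the groups SEC JUN20, CTRL JUN20, SEC OCT20 and CTRL OCT20, each of 5 libraries made from pools of 10 larvae. The strain is not given, nor whether the pools of a group came from separate spawns, so p-values measure the spread between these pools only. In units of M, the sixth power of 10, the library totals were 35.3 to 59.9 M counts in SEC JUN20, 29.6 to 49.0 M in CTRL JUN20, 32.7 to 45.4 M in SEC OCT20 and 28.8 to 40.2 M in CTRL OCT20. The purine genes had 327 to 2543 counts per library. The October libraries fell into sets by their counts of si:dkey-269o24.1, a gene named only by its clone: 3 SEC and 2 CTRL libraries held 106 to 204 counts and 2 SEC and 3 CTRL libraries held 16 to 29. They are called the high and the low October libraries here. The June libraries were not divided, though their counts of this gene ran from 8 (CTRL JUN20 replicate 2) to 256 (SEC JUN20 replicate 2). Values within each set are given for the purine genes, and for other genes where they undo a printed October call. In whole larvae, fewer cells of a type and less RNA per cell cannot be told apart.

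impdh1b (ENSDARG00000029524) was lower in larvae exposed to the October extract than in their controls, and in the June libraries, which were not used to pick it, a small difference in the same direction did not pass the test. Its level, in counts per M scaled with TMM factors (CPM), was 39.9, 35.9, 36.8, 36.2 and 36.8 in the 5 SEC OCT20 libraries, against 48.1, 53.0, 51.8, 50.6 and 48.4 in the 5 CTRL OCT20 libraries. Every SEC library lay below every CTRL library, and SEC replicate 1 stood above the other 4 of its group. The means were 37.1 ± 1.62 CPM in SEC OCT20 and 50.4 ± 2.13 CPM in CTRL OCT20 (SD, n = 5 each). That is a log2 change of -0.44 ± 0.04 (SE), or 26.3% less; the groups did not overlap, as in the same direction for 4.70% of all tested genes. The rule used this contrast, and nothing is read from it. Within the high October libraries the log2 change was -0.46, and within the low ones -0.43.

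In June, impdh1b stood at 41.0, 39.9, 40.1, 39.6 and 40.5 CPM in SEC JUN20, against 42.2, 43.7, 42.8, 41.6 and 43.5 CPM in CTRL JUN20. The groups did not overlap, with all 5 SEC libraries lower by a narrow margin; 6.04% of all tested genes had SEC libraries wholly below CTRL libraries in June. The log2 change was -0.09 ± 0.04 (95% interval -0.16 to -0.01), a mean of 40.2 ± 0.55 CPM in SEC and 42.8 ± 0.87 CPM in CTRL. It did not pass edgeR's quasi-likelihood test with Benjamini-Hochberg adjustment over all tested genes (unadjusted p = 0.0254, adjusted p = 0.133), and a gene was called only with an adjusted p under 0.05. Of all tested genes, 10.8% were called in this contrast. The October change minus the June change was -0.35 ± 0.05 on the log2 scale, a description because it holds the October libraries.

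The order of the 4 group means of impdh1b was CTRL OCT20, CTRL JUN20, SEC JUN20 and SEC OCT20, with the highest at 1.36 times the lowest. The October controls thus stood above the June controls, by a log2 difference of 0.24 ± 0.04, and the groups did not overlap, as in that direction for 2.60% of all tested genes. SEC OCT20 differed from SEC JUN20 by -0.12 ± 0.04, and there the ranges overlapped, since SEC OCT20 replicate 1 (39.9 CPM) lay inside the SEC JUN20 range. Both values are descriptions, and the campaign cannot be told apart from anything else that differed between the June and October libraries.

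**Figure D1:**
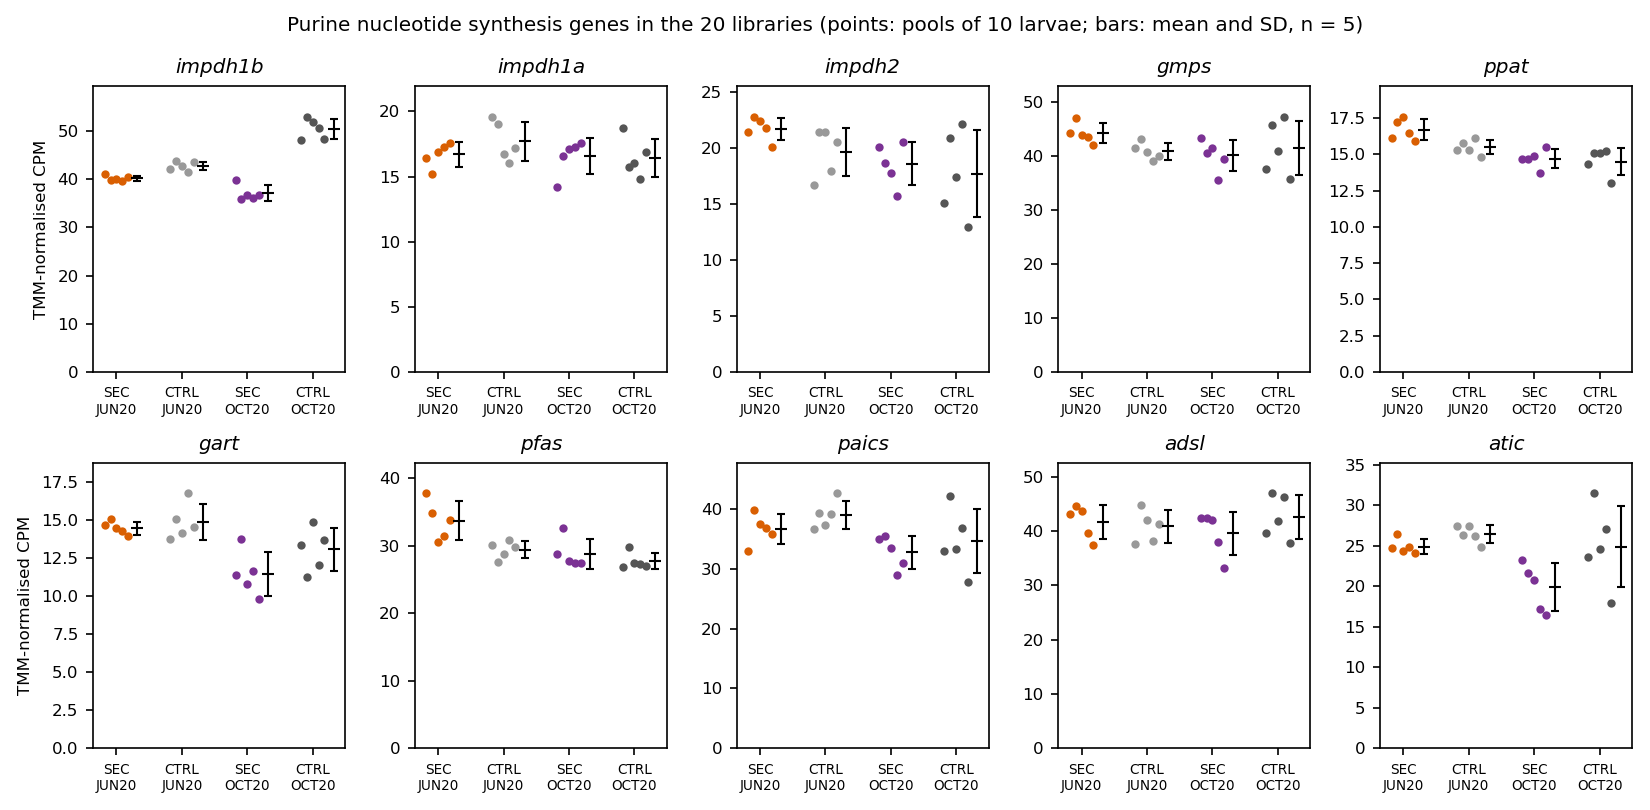
TMM-normalised CPM (vertical axes, each from 0) of the 10 purine synthesis genes in the SEC JUN20, CTRL JUN20, SEC OCT20 and CTRL OCT20 libraries, with the group mean and SD (n = 5). For impdh1b the SEC OCT20 libraries lie at 35.9 to 39.9 CPM, below all CTRL OCT20 libraries at 48.1 to 53.0 CPM, while for impdh1a and impdh2 the groups overlap.

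Neither of the other IMP dehydrogenase genes was called with either extract. impdh1a (ENSDARG00000042336), the second gene of the IMPDH1 type in zebrafish, averaged 16.6 ± 1.37 CPM in SEC OCT20 and 16.4 ± 1.46 CPM in CTRL OCT20, a log2 change of 0.01 ± 0.07 with a 95% interval of -0.14 to 0.16 (adjusted p = 0.927). Its log2 change was 0.07 within the high October libraries (adjusted p = 0.65), and within the low ones 0.03 (adjusted p = 0.895). In June it averaged 16.7 ± 0.95 CPM in SEC and 17.7 ± 1.52 CPM in CTRL (-0.09 ± 0.07, adjusted p = 0.489). Its 4 group means lay within 1.08 times of each other, and neighbours in their order overlapped.

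impdh2 (ENSDARG00000006900), whose human counterpart is the form raised in dividing cells, averaged 18.6 ± 1.94 CPM in SEC OCT20 and 17.7 ± 3.87 CPM in CTRL OCT20, with a log2 change of 0.08 ± 0.12 (95% interval -0.17 to 0.32, adjusted p = 0.72). The October control libraries ran from 12.9 to 22.1 CPM and enclosed all the exposed ones. In June it averaged 21.7 ± 1.02 CPM in SEC and 19.6 ± 2.14 CPM in CTRL (0.15 ± 0.11, adjusted p = 0.461). Within the high October libraries impdh2 was at 18.8 CPM in SEC and 21.5 CPM in CTRL, and within the low ones at 18.1 CPM in SEC and 15.1 CPM in CTRL, so its direction differed between the sets and neither difference was called. gmps (ENSDARG00000079848), which turns the product of IMP dehydrogenase into GMP, averaged 40.1 ± 2.90 CPM in SEC OCT20 and 41.5 ± 5.01 CPM in CTRL OCT20 (-0.05 ± 0.07, adjusted p = 0.685). In June gmps averaged 44.2 ± 1.87 CPM in SEC and 40.9 ± 1.58 CPM in CTRL (0.11 ± 0.07, adjusted p = 0.316), with 4 of 5 SEC libraries above all CTRL libraries. The log2 change of gmps within the high October libraries was -0.15 (adjusted p = 0.0817), and within the low ones -0.01 (adjusted p = 0.948).

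Along the route to IMP, a single gene was called with each extract, and not the same gene. In June 1 of the 10 genes was called (10.0%), pfas, against 10.8% of all tested genes; 5.92% of all genes were called higher and 4.90% lower. In October 1 of the 9 genes other than impdh1b was called (11.1%), atic, against 18.0% of all tested genes, of which 9.54% were higher and 8.49% lower. Both shares are near or below the background. The median log2 change of the 9 genes was 0.03 in June and -0.05 in October, and that of all tested genes lay at -0.00 in June and -0.01 in October.

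pfas (ENSDARG00000003750), which brings in a nitrogen of the ring, rose with the June extract. It was at 37.8, 34.9, 30.5, 31.5 and 33.8 CPM in SEC JUN20, against 30.1, 27.6, 28.8, 30.8 and 29.8 CPM in CTRL JUN20. In 4 of 5 SEC libraries it was above all CTRL libraries, and SEC replicate 3 lay just under the highest CTRL library. The log2 change was 0.19 ± 0.06 (14.4% more, adjusted p = 0.0325). The call was lost without SEC JUN20 replicate 1 (0.15, adjusted p = 0.0948), 2 (0.18, 0.0781) or 5 (0.19, 0.0595), and without CTRL JUN20 replicate 2 (0.17, 0.0836), 3 (0.19, 0.0745) or 5 (0.20, 0.0514). In October pfas was at 28.8, 32.6, 27.8, 27.5 and 27.4 CPM in SEC, against 26.9, 29.8, 27.4, 27.3 and 27.0 CPM in CTRL, and the groups overlapped (0.06 ± 0.06, adjusted p = 0.568). The high October libraries gave 0.06 (adjusted p = 0.664) and the low ones 0.03 (adjusted p = 0.881).

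atic (ENSDARG00000016706), whose enzyme closes the ring of IMP, fell with the October extract in the fit of all 20 libraries. It was at 23.3, 21.7, 20.8, 17.2 and 16.5 CPM in SEC OCT20, against 23.6, 31.5, 24.6, 27.1 and 17.9 CPM in CTRL OCT20. The groups overlapped, since CTRL replicate 5 lay among the exposed libraries, and 2 of 5 SEC libraries were below all CTRL libraries. The log2 change was -0.32 ± 0.11 (95% interval -0.55 to -0.09, 20.1% less, adjusted p = 0.0462). This call stood at the threshold: it was lost in 17 of 20 fits with a library left out, among them each of the 10 fits without a June library (adjusted p 0.0524 to 0.0557). Among October libraries it was lost without SEC replicates 3 (-0.34, 0.0602), 4 (-0.28, 0.114) or 5 (-0.26, 0.129), and without CTRL replicates 1 (-0.34, 0.0542), 2 (-0.22, 0.148), 3 (-0.33, 0.0741) or 4 (-0.29, 0.102). Within the high October libraries atic was at 21.9 CPM in SEC and 29.3 CPM in CTRL, a log2 change of -0.41 (adjusted p = 0.00197), and within the low ones at 16.9 CPM in SEC and 22.0 CPM in CTRL, a log2 change of -0.38 (adjusted p = 0.119). In June atic was at 24.7, 26.5, 24.4, 24.8 and 24 CPM in SEC and at 27.5, 26.3, 27.4, 26.2 and 24.8 CPM in CTRL, with overlap (-0.09 ± 0.11, adjusted p = 0.677).

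The remaining genes of the route were not called with either extract in the fit of all 20 libraries. ppat (ENSDARG00000004517), the committed first step, ran from 15.9 to 17.6 CPM in SEC JUN20 and from 14.8 to 16.1 CPM in CTRL JUN20 (0.11 ± 0.05, adjusted p = 0.198). In October it ran from 13.7 to 15.5 CPM in SEC and from 13.0 to 15.2 CPM in CTRL (0.02 ± 0.05, adjusted p = 0.868), with -0.04 in the high October libraries (adjusted p = 0.813) and 0.06 in the low ones (adjusted p = 0.797). gart (ENSDARG00000101089), a single protein that carries out several steps, was at 11.4, 13.8, 10.8, 11.7 and 9.84 CPM in SEC OCT20, against 13.4, 11.3, 14.9, 12.1 and 13.7 CPM in CTRL OCT20. The log2 change of gart was -0.19 ± 0.08 (adjusted p = 0.12), and without SEC OCT20 replicate 2, the highest of its group, it was -0.26 (adjusted p = 0.0242). The low October libraries gave -0.37 (adjusted p = 0.0529) and the high ones 0.04 (adjusted p = 0.866) for gart. In June its log2 change was -0.04 ± 0.08 (adjusted p = 0.831).

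paics (ENSDARG00000033539), which joins a carboxylation to the step that adds aspartate, averaged 32.7 ± 2.75 CPM in SEC OCT20 and 34.6 ± 5.31 CPM in CTRL OCT20 (-0.08 ± 0.08, adjusted p = 0.586), and 36.6 ± 2.48 CPM in SEC JUN20 and 38.9 ± 2.34 CPM in CTRL JUN20 (-0.09 ± 0.08, adjusted p = 0.547). adsl (ENSDARG00000017049), whose enzyme acts both before IMP and on the way to AMP, averaged 39.6 ± 4.01 CPM in SEC OCT20 and 42.6 ± 4.01 CPM in CTRL OCT20 (-0.10 ± 0.07, adjusted p = 0.383). With the October sets as a term of the fit adsl was called (-0.15, adjusted p = 0.0496). Within the high October libraries adsl was at -0.14 (adjusted p = 0.0952) and paics at -0.18 (adjusted p = 0.0792), and within the low ones adsl was at -0.16 (adjusted p = 0.277) and paics at -0.06 (adjusted p = 0.763). In June adsl averaged 41.7 ± 3.08 CPM in SEC and 40.9 ± 3.01 CPM in CTRL (0.03 ± 0.07, adjusted p = 0.862). For each of these genes the exposed and control libraries overlapped in both campaigns.

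**Figure D2:**
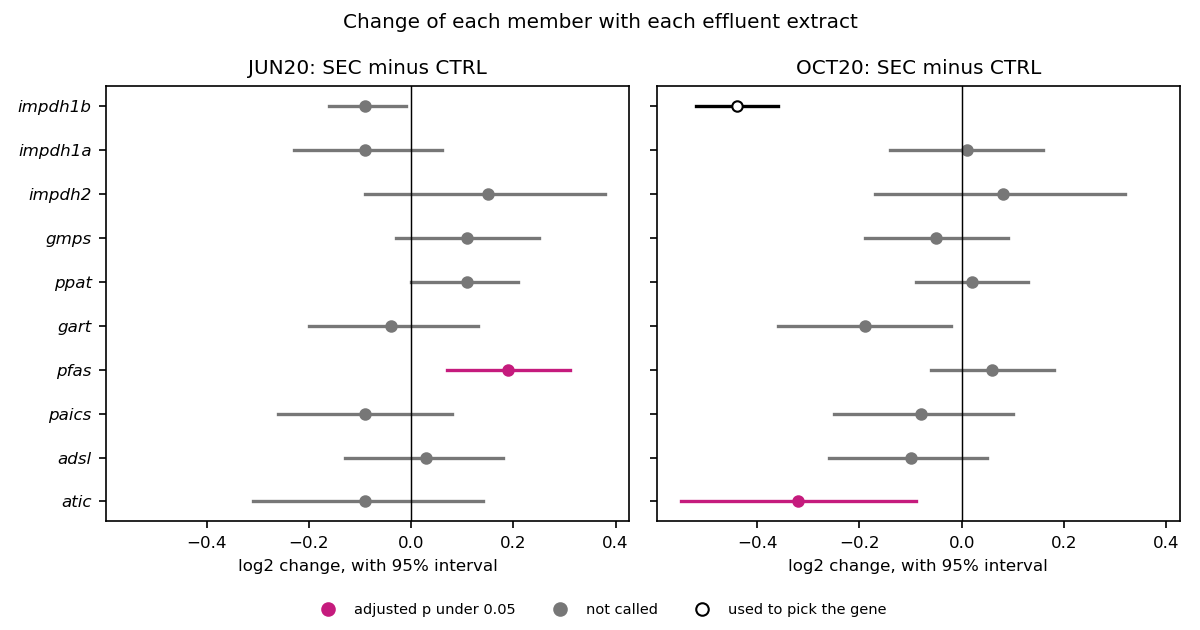
Log2 change with its 95% interval (horizontal axis) of each purine synthesis gene, SEC minus CTRL, in JUN20 (left) and OCT20 (right). Filled coloured points are called, grey points are not, and the open point is impdh1b in October, which was used to pick the gene. The coloured points are pfas at 0.19 in June and atic at -0.32 in October.

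Whether the effect of the extract differed between campaigns was tested gene by gene as the October change minus the June change. None of the 9 genes other than impdh1b was called by edgeR (0 of 9, smallest adjusted p 0.526), against 1.03% of all tested genes. None of the 9 had an unadjusted p under 0.05 in edgeR, against 2843 of all 23121 tested genes. DESeq2 called 0 of 9, against 606 genes over the table. The differences of the 9 genes had a median of -0.13 on the log2 scale, with 7 of 9 below zero, and the median over all tested genes was -0.01. The difference of the October and June effects shares its libraries with both contrasts, so it is no separate evidence.

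Between the control groups, October minus June, 0 of the 9 genes were called by edgeR, against 5.80% of all tested genes. DESeq2 called 0 of the 9, against 2063 genes over the table. Of the 9, only gart had an unadjusted p under 0.05 in edgeR, at -0.18 ± 0.08 (adjusted p = 0.18). Of all 23121 tested genes, 5190 had an unadjusted p under 0.05. Without CTRL OCT20 replicate 2, the library with the highest paics of its group, paics was called (-0.25, adjusted p = 0.0353), against -0.17 ± 0.08 with it. The median of the 9 was -0.09.

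Between the exposed groups, gart, pfas and ppat were lower in October than in June. In SEC OCT20 minus SEC JUN20, 3 of 9 genes were called, all of them lower (33.3%), against 12.0% of all tested genes called and 5.58% called lower. gart fell by 0.34 ± 0.08 on the log2 scale (adjusted p = 0.00912), pfas by 0.22 ± 0.06 (adjusted p = 0.0149) and ppat by 0.18 ± 0.05 (adjusted p = 0.0242). gart was at 9.84 to 13.8 CPM in SEC OCT20, against 14.0 to 15.1 CPM in SEC JUN20, and ppat at 13.7 to 15.5 CPM in SEC OCT20, against 15.9 to 17.6 CPM in SEC JUN20. Neither gene overlapped between these groups, nor did atic, whose SEC OCT20 libraries, at 16.5 to 23.3 CPM, all lay below its SEC JUN20 libraries (-0.33 ± 0.11, adjusted p = 0.0549). atic was not called in the fit of all 20 libraries, but was called with DESeq2 (adjusted p = 0.0321), library totals alone (0.0233), the stricter filter (0.0498), only the groups compared (0.0195) and the October sets as a term (0.000352). It was also called without SEC OCT20 replicate 1 (-0.39, 0.0323) and without CTRL OCT20 replicate 2 (-0.32, 0.0269) or 5 (-0.33, 0.0133). In the fit of all 20 libraries impdh2 (-0.22, adjusted p = 0.206), gmps (-0.14, 0.168) and paics (-0.16, 0.212) were not called. With only the groups compared impdh2 was called (-0.22, adjusted p = 0.0406). The October sets as a term gave calls of gmps (-0.16, adjusted p = 0.0132) and paics (-0.19, 0.0218). Of all tested genes, 5.45% had SEC OCT20 wholly below SEC JUN20. All 9 log2 changes were below zero, from -0.34 to -0.01, with a median of -0.18 beside -0.01 over all tested genes. The summed CPM of 12 DNA replication and division genes, described further on, also differed between these groups without overlap, at 359 to 452 in SEC OCT20 and 489 to 678 in SEC JUN20, and its part in these changes was not tested. The call of ppat was lost without SEC JUN20 replicate 2 (-0.17, adjusted p = 0.0605) or 3 (-0.16, 0.0734) and without SEC OCT20 replicate 4 (-0.16, 0.0703), while those of gart and pfas were kept with any single library left out. The same genes gave -0.18 ± 0.08 for gart, -0.09 ± 0.06 for pfas and -0.09 ± 0.05 for ppat between the control groups, none of them called. Extract and campaign cannot be told apart here.

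Within groups the purine genes did not all vary alike, and for impdh1b, impdh2, gmps, ppat, paics and atic the SD was largest among the October controls. CTRL OCT20 replicate 5 was the lowest of its group for 6 genes (impdh2, gmps, ppat, paics, adsl and atic), and CTRL OCT20 replicate 2 was the highest for 5 (impdh1b, pfas, paics, adsl and atic). impdh2 was at 12.9 CPM in CTRL OCT20 replicate 5 and at 20.9 CPM in replicate 2, and paics at 27.8 CPM and 42.2 CPM in the same libraries. impdh1b was at 48.4 CPM in replicate 5 and 53.0 CPM in replicate 2. The summed CPM of 12 DNA replication and division genes (pcna, the mcm genes, mki67, top2a, cdk1, ccnb1 and ccna2) moved in the same libraries: it was 383, 720, 561, 669 and 354 in CTRL OCT20, against 452, 406, 428, 359 and 364 in SEC OCT20. Its part in the October values of the purine genes was not tested.

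As a description, the deviations of these genes from their group means had a median Pearson r of 0.28 over the 45 gene pairs and 20 libraries. The median pair had r of 0.51 over the 10 October libraries and 0.06 over the 10 June libraries. The same deviations were averaged over the DNA replication and division genes, without summing their CPM. With that average gmps had r of 0.91 over 20 libraries, impdh2 and paics had 0.83 each, and atic had 0.81. For impdh1b r was 0.64, while gart had -0.25 and impdh1a -0.59. The values differed between campaigns: over the 10 October libraries r was 0.93 for gmps, 0.85 for atic and 0.76 for impdh1b, and over the 10 June libraries 0.74 for gmps, 0.47 for atic and -0.11 for impdh1b. Between impdh1b and impdh2, r was 0.61 over 20 libraries, 0.64 in October and 0.50 in June, and between impdh1b and impdh1a it was -0.51, -0.81 and 0.25 over the same libraries. All of these values share library size factors and the October sets, in which the high libraries had higher means than the low ones, in both SEC and CTRL, for all of the purine genes but impdh1a and gart.

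**Figure D3:**
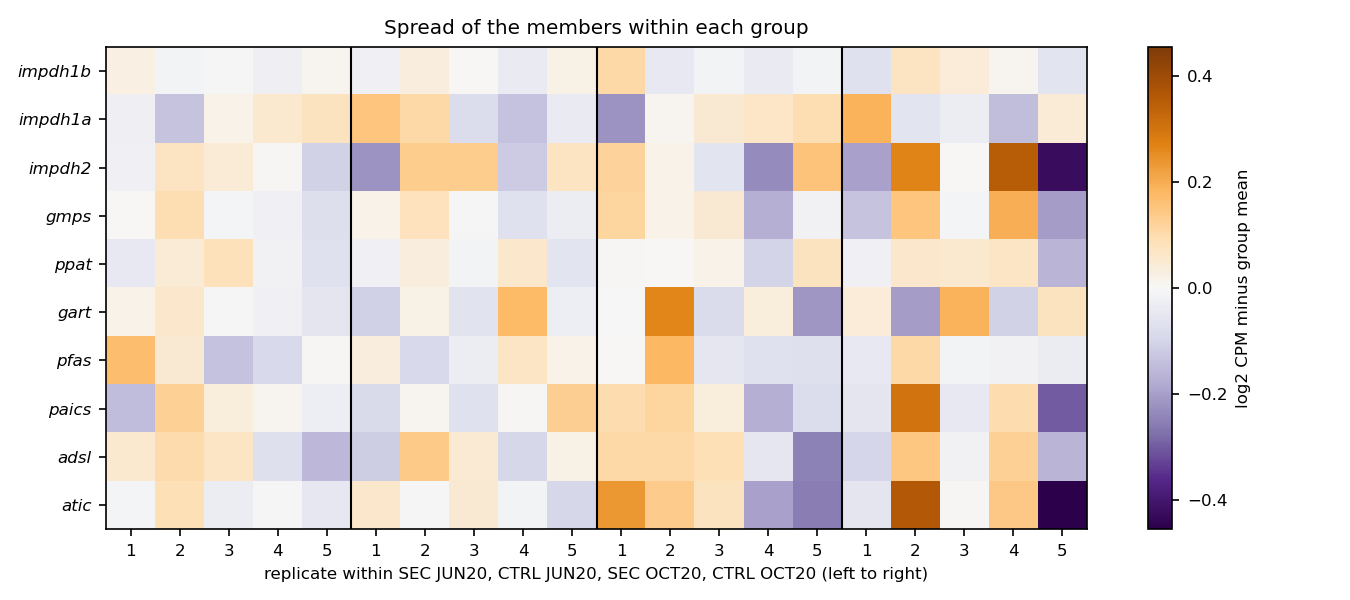
Deviation of each purine synthesis gene from its group mean (colour scale, log2 CPM) in the 20 libraries, arranged by group. The October controls on the right show the widest range, from low values of impdh2, paics and atic in replicate 5 to high values of paics and atic in replicate 2; impdh1b ranges from 48.1 to 53.0 CPM there.

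The genes whose level was most like that of impdh1b over the 20 libraries were sought among 15954 genes with a mean of at least 1 CPM. Genes without a symbol, or named only by a clone or locus, were left out, so genes of that kind may lie nearer. By Pearson r of log2 CPM they were stag1a (0.925), cuedc1a (0.90), krt18a.2 (0.898), cxcl12b (0.894) and acsbg2 (0.892). stag1a, a cohesin subunit gene, averaged 44.4 CPM in SEC OCT20, 52.8 CPM in CTRL OCT20, 46.4 CPM in SEC JUN20 and 49.3 CPM in CTRL JUN20, the same order of groups as impdh1b. krt18a.2, a keratin gene, averaged 6.06 CPM in SEC OCT20 and 13.8 CPM in CTRL OCT20, a wider difference. Among the purine genes r with impdh1b ran from -0.317 (pfas) to 0.489 (atic). By deviations from group means, which leave out the group differences, the nearest genes were sync (0.852), kyat1 (0.841), cnot3b (0.811), clcn1b (0.806) and lbr (0.805). These values are descriptions over libraries that share groups and campaigns. Those of log2 CPM also hold the October difference used to pick impdh1b.

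Genes around the pathway were counted in lists of neighbouring functions, with SEC against CTRL in each campaign. Of 7 tested genes of ribose phosphate supply and the AMP branch, 1 rose and 0 fell in June (median log2 change 0.07), and 2 rose and 0 fell in October (median 0.07). That is 14.3% in June and 28.6% in October, against 10.8% and 18.0% of all tested genes called. prps1a, which makes the activated ribose on which purines are built, averaged 58.9 ± 2.17 CPM in SEC OCT20 and 51.3 ± 4.67 CPM in CTRL OCT20 (0.20 ± 0.05, adjusted p = 0.0105), and 59.2 ± 2.79 CPM in SEC JUN20 and 48.2 ± 2.23 CPM in CTRL JUN20 (0.30 ± 0.05, adjusted p = 0.000868). prps1a was at 0.09 within the high October libraries (adjusted p = 0.311), and within the low ones at 0.29 (adjusted p = 0.027). The other gene called in October was adss1, of the AMP branch (0.15 ± 0.05, adjusted p = 0.0458), a call lost in 15 of 20 fits with a library left out. Within the high October libraries adss1 was at 0.17 (adjusted p = 0.214), and within the low ones at 0.16 (adjusted p = 0.149).

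Of 12 nucleotide interconversion genes, 0 rose and 1 fell in June (median -0.04), and 1 rose and 2 fell in October (median -0.02). That is 8.33% in June and 25.0% in October, against 10.8% and 18.0% of all tested genes. guk1b, a guanylate kinase gene that acts on GMP, averaged 22.5 ± 1.82 CPM in SEC OCT20 and 27.8 ± 1.52 CPM in CTRL OCT20 (-0.30 ± 0.06, adjusted p = 0.00118), and 22.6 ± 1.01 CPM in SEC JUN20 and 24.0 ± 1.94 CPM in CTRL JUN20 (-0.09 ± 0.06, adjusted p = 0.378). ak4, an adenylate kinase gene, had log2 changes of -0.51 ± 0.11 in October (adjusted p = 0.00246) and -0.35 ± 0.11 in June (adjusted p = 0.0442), the June call being lost in 13 of 20 fits with a library left out. ampd2b, an AMP deaminase gene, was at 0.24 ± 0.08 in October (adjusted p = 0.0321), lost in 5 of those fits. In October ak4 was at -0.20 within the high libraries (adjusted p = 0.0678) and ampd2b at 0.42 (adjusted p = 0.000125), and within the low ones ak4 was at -0.63 (adjusted p = 0.000636) and ampd2b at 0.19 (adjusted p = 0.0861).

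Salvage and breakdown genes were called in both campaigns. Of 13 salvage genes, 4 rose and 1 fell in June (median 0.12; 3 to 6 called with a library left out), and 4 rose and 2 fell in October (median 0.10). That is 38.5% in June and 46.2% in October, against 10.8% and 18.0% of all tested genes. ada, the adenosine deaminase gene, averaged 156 ± 16.6 CPM in SEC OCT20 and 241 ± 18.0 CPM in CTRL OCT20 (-0.63 ± 0.07, adjusted p = 1.57e-06), and 185 ± 13.9 CPM in SEC JUN20 and 226 ± 18.1 CPM in CTRL JUN20 (-0.29 ± 0.07, adjusted p = 0.012). The purine nucleoside phosphorylase genes were split: pnp4b (0.51 ± 0.10, adjusted p = 0.000759) and pnp5b (0.58 ± 0.09, adjusted p = 7.55e-05) rose in October, while pnp4a, an iridophore marker, fell (-0.73 ± 0.15, adjusted p = 0.00216). Both pnp4b (0.39 ± 0.10, adjusted p = 0.0122) and pnp5b (0.27 ± 0.09, adjusted p = 0.045) were called higher in June too. pnp4a was not called there (-0.22 ± 0.15, adjusted p = 0.366). In June adkb, an adenosine kinase gene, was at 0.29 ± 0.05 (adjusted p = 0.000209), and it was not called in October (0.10 ± 0.05, adjusted p = 0.152). Of 10 breakdown genes, 2 rose in June (20.0%, against 10.8% of all tested genes) and 3 in October (30.0%, against 18.0%), and 0 fell. That count depends on how the lists were drawn: ada, which fell in both campaigns, was counted with salvage, while ada2b was counted with breakdown. nt5e, which strips the phosphate from AMP outside the cell, was at 0.55 ± 0.08 in both October (adjusted p = 2.78e-05) and June (adjusted p = 6.2e-05). xdh, xanthine dehydrogenase, was at 0.31 ± 0.06 in October (adjusted p = 0.00168) and 0.24 ± 0.06 in June (adjusted p = 0.016; 0.051 without CTRL JUN20 replicate 3). Its October change was 0.42 within the high libraries (adjusted p = 0.0988) and 0.23 within the low ones (adjusted p = 0.0452).

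Of 20 genes of folate, one-carbon and serine supply, which feeds the formyl groups of the purine ring, 5 rose and 0 fell in June (2 to 6 called with a library left out), and 4 rose and 1 fell in October. That is 25.0% in each campaign, against 10.8% of all tested genes in June and 18.0% in October. fpgs, which holds folates in the cell, averaged 42.1 ± 1.15 CPM in SEC OCT20 and 29.1 ± 2.60 CPM in CTRL OCT20 (0.53 ± 0.05, adjusted p = 1.58e-07), and 36.0 ± 1.53 CPM in SEC JUN20 and 29.0 ± 1.20 CPM in CTRL JUN20 (0.31 ± 0.05, adjusted p = 0.000415). psph, the last step of serine synthesis, was at 0.47 ± 0.07 in October (adjusted p = 5.02e-05) and 0.48 ± 0.07 in June (adjusted p = 7.18e-05). Without SEC OCT20 replicate 3, 4 or 5, 3 genes of this list were called in October.

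Of 20 genes in the pyrimidine synthesis list, 5 rose and 0 fell in June, and 4 rose and 4 fell in October. That is 25.0% in June and 40% in October, against 10.8% and 18.0% of all tested genes. cad, the first enzyme of pyrimidine synthesis, averaged 153 ± 15.0 CPM in SEC JUN20 and 126 ± 4.82 CPM in CTRL JUN20 (0.28 ± 0.06, adjusted p = 0.00286), and was not called in October (0.14 ± 0.06, adjusted p = 0.0962). The list also held subunit genes of ribonucleotide reductase, an enzyme that is not particular to pyrimidines. Of these, rrm2b, known as a p53 target, was at 0.57 ± 0.08 in October (adjusted p = 9.69e-06) and 0.40 ± 0.07 in June (adjusted p = 0.00111). Without SEC OCT20 replicate 2 or 5, 5 genes of the list were called in October, and within the low October libraries 4, all higher.

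Of 9 tested genes that make pteridines from GTP, 3 rose and 0 fell in June, and 3 rose and 2 fell in October. That is 33.3% in June and 55.6% in October, against 10.8% and 18.0% of all tested genes. gch1, the first step from GTP, averaged 70.6 ± 5.56 CPM in SEC OCT20 and 45.0 ± 1.51 CPM in CTRL OCT20 (0.65 ± 0.06, adjusted p = 1.44e-07), and 58.4 ± 4.91 CPM in SEC JUN20 and 42.9 ± 3.47 CPM in CTRL JUN20 (0.45 ± 0.06, adjusted p = 6.41e-05). The recycling enzyme genes qdpra (0.44 ± 0.10, adjusted p = 0.00348) and pcbd1 (0.38 ± 0.08, adjusted p = 0.00264) rose in October as well. Both were also called in June, qdpra at 0.45 (adjusted p = 0.00546) and pcbd1 at 0.40 (adjusted p = 0.00286). Among the high October libraries qdpra was at 0.58 (adjusted p = 0.0748) and pcbd1 at 0.51 (adjusted p = 0.000462), and within the low ones qdpra was at 0.41 (adjusted p = 0.00139) and pcbd1 at 0.22 (adjusted p = 0.113). sprb, a sepiapterin reductase gene, averaged 2.01 ± 0.90 CPM in SEC OCT20 and 5.06 ± 1.81 CPM in CTRL OCT20 (-1.32 ± 0.28, adjusted p = 0.00211).

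Of the 12 DNA replication and division genes, 6 fell in October (median -0.38), or 50%, against 18.0% of all tested genes called. In June edgeR called 0 of 12 (median -0.25), against 10.8% of all tested genes, and DESeq2 called 0, against 3097 genes over the table. Of the 12, 2 had an unadjusted p under 0.05 in edgeR in June, as did 5744 of all 23121 tested genes. top2a averaged 42.2 ± 3.90 CPM in SEC OCT20 and 68.0 ± 18.7 CPM in CTRL OCT20 (-0.69 ± 0.14, adjusted p = 0.00187), and 59.6 ± 6.47 CPM in SEC JUN20 and 74.9 ± 4.13 CPM in CTRL JUN20 (-0.33 ± 0.14, adjusted p = 0.143). mki67 was at -0.56 ± 0.13 in October (adjusted p = 0.00602). For the high October libraries alone, top2a was at -0.95 (adjusted p = 1.95e-07) and mki67 at -0.84 (adjusted p = 8.69e-07), and within the low ones top2a was at -0.49 (adjusted p = 0.413) and mki67 at -0.35 (adjusted p = 0.451). The October count was 3 without CTRL OCT20 replicate 2 or 4, 12 of 12 within the high October libraries and 1 within the low ones.

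Markers of photoreceptors and of pigment cells were detected. Among those that passed the filter on low counts, none was at 0 in all libraries of a group (0 markers). The filter had already removed genes with few counts, so that count cannot show whether a cell type was present. The summed level of 32 tested photoreceptor markers was lower in exposed larvae with no overlap: 5700 to 6710 CPM in SEC OCT20, against 6810 to 8330 CPM in CTRL OCT20, and 6180 to 7010 CPM in SEC JUN20, against 7220 to 7950 CPM in CTRL JUN20. Single genes with SEC wholly below CTRL made up 4.70% of all tested genes in October and 6.04% in June. Of the 32 photoreceptor markers, 3 rose and 16 fell in October (59.4% called, against 18.0% of all tested genes). In June 0 rose and 10 fell (31.2%, against 10.8%). Their log2 changes ran from -2.33 to 0.88 in October and from -1.32 to 0.17 in June. The summed level of 9 iridophore markers was 175 to 218 CPM in SEC OCT20, against 215 to 276 CPM in CTRL OCT20, and 210 to 229 CPM in SEC JUN20, against 252 to 272 CPM in CTRL JUN20; 4 fell in October and 2 in June (1 to 2 with a library left out), and 0 rose. That is 44.4% called in October and 22.2% in June. Iridophore sums overlapped between SEC and CTRL in October and not in June. Xanthophore and melanophore sums overlapped between SEC and CTRL in both campaigns. Of 9 xanthophore markers, 2 rose and 2 fell in October (44.4%) and 2 rose and 1 fell in June (33.3%), and of 11 melanophore markers 2 fell in each campaign (18.2%) and 0 rose (0 called within the low October libraries). The xanthophore markers that rose were bco1 and xdh in each campaign, and xdh was also counted among the breakdown genes. The October call of bco1 (0.25, adjusted p = 0.0467) was lost in 14 of 20 fits with a library left out. Within the high October libraries bco1 was at 0.33 (adjusted p = 0.00384), and within the low ones at 0.12 (adjusted p = 0.479). The part of these cell types in the impdh1b values was not tested.

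**Figure D4:**
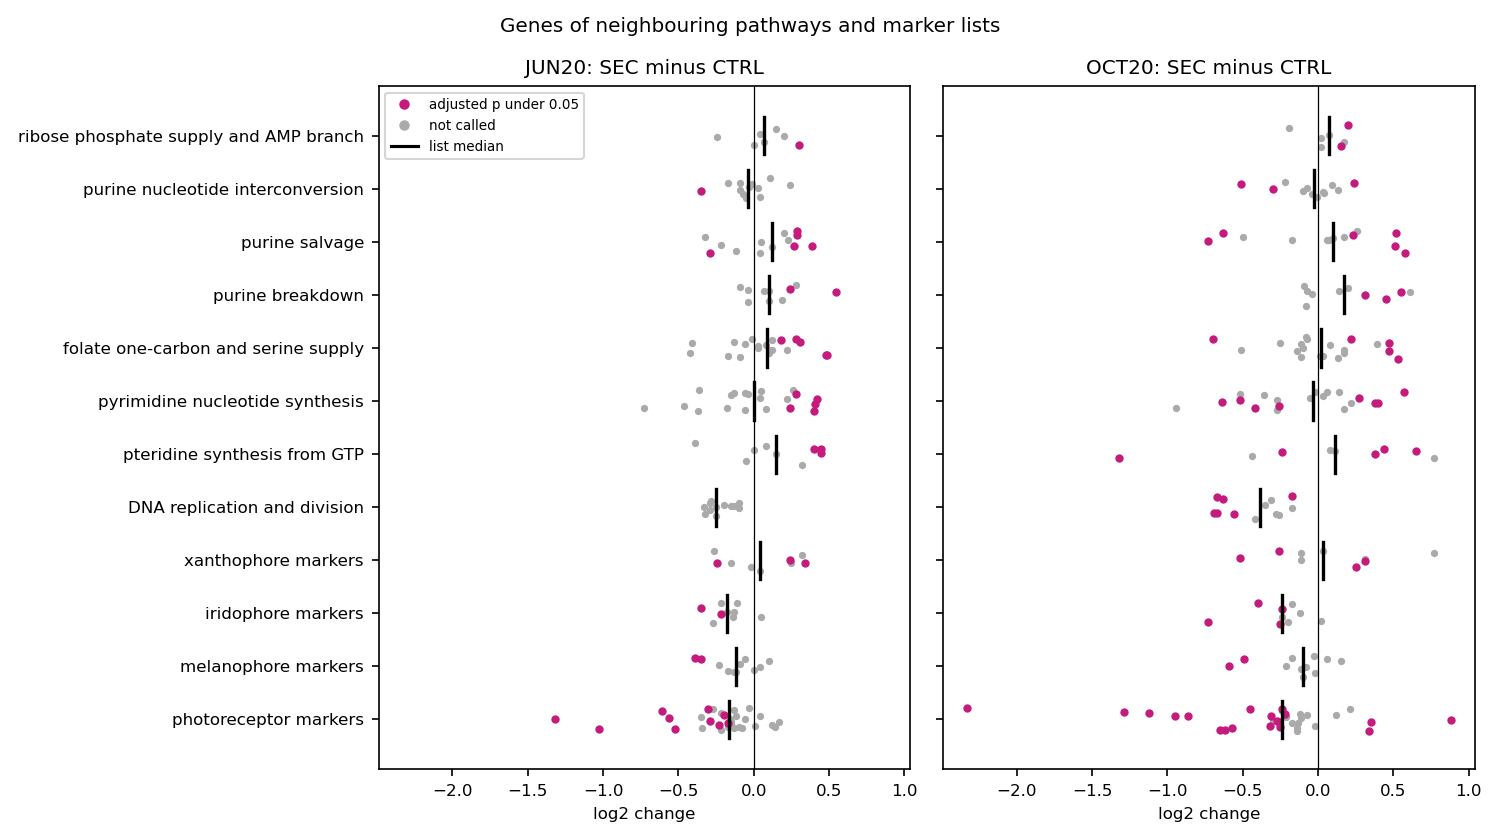
Log2 change, SEC minus CTRL (horizontal axis), of each tested gene in lists of neighbouring pathways and cell markers, in JUN20 (left) and OCT20 (right). Coloured points are called genes, grey points are not called, and the black bar is the list median; the DNA replication and division list has medians of -0.25 in June and -0.38 in October, and the purine breakdown list 0.10 and 0.17.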

How the data were processed

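Messenger RNA of 20 pools of whole larvae was sequenced from stranded libraries with molecular identifiers, per the labels' protocols. The deposited values per gene were whole numbers and were taken as raw counts. Per the submitters' processing notes the aligner was STAR 2.7.8a and the genome build GRCz11, with CASAVA, SAMtools and DESeq2 3.17 also named. For the counter, annotation release, strand setting and use of the identifiers, "not given in the sources used here" holds. No coordinates or sequences were used. Genes are given by symbol and identifier of the count table, and the per-sample files equalled it in 20 of 20 libraries.

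Genes were filtered with filterByExpr (minimum count 10; 23121 kept, 9399 removed, at least 99.97% of each library's counts kept) and tested with edgeR 4.0.16 in R 4.3.3 (TMM factors, robust quasi-likelihood F test, 4 group means over 20 libraries, no block), with Benjamini-Hochberg adjustment over all tested genes and calls under 0.05. The common biological coefficient of variation was 10.2%. The standard error is the absolute log2 change divided by the square root of F. CPM values are TMM-normalised, with SD over 5 libraries.

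The members, gene lists, the October sets and the tests were chosen with earlier results of these data known. Named were all 10 members, up to 4 called genes with the smallest p per list and campaign, of which some are not reported here, and the 5 genes most like impdh1b by each of 2 measures. Alternatives were DESeq2 1.42.0, RLE factors, library totals alone, no filter, a stricter filter (a summed count of 200 and 1 CPM in 5 libraries), a replicate block, only the groups compared, the October sets as a term or apart, and each library left out. The scripts were tested on simulated data.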

Additional observations from a re-analysis of the deposited data

Results flagged for a closer look

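Each of the 10 genes was checked in its 4 groups for a library that stands apart from the other 4, and 3 of the 40 groups held such a library; chance alone gives about 1 in 20. For impdh1b it was SEC OCT20 replicate 1, at 39.9 CPM, against 35.9 to 36.8 CPM in the other SEC OCT20 libraries. For pfas it was SEC OCT20 replicate 2, at 32.6 CPM, and CTRL OCT20 replicate 2, at 29.8 CPM, each the highest of its group.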

How the results depend on the processing

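Alternatives for the list counts, the genes named from lists and the SEC OCT20 against SEC JUN20 member count were chosen after seeing the data. The June change of impdh1b stayed below zero and uncalled under all 28 alternatives (-0.098 to -0.057). The replicate numbers did not pair the libraries (r of same-numbered libraries -0.071 to -0.015 in June and -0.355 to 0.228 in October, 0 of 10 a best match); with the replicate block 1759 genes were called in June, 3338 in October and 116 for the difference, and impdh1b in June was at -0.088 (adjusted p = 0.269). The count of called members in October was 0 with no filter, with only the groups compared and in the low October libraries, 2 with the October sets as a term, and 0 to 2 with a library left out; in June it was 0 to 1, between controls 0 to 1, and between exposed groups 2 to 4, with 5 from only the groups compared and 6 with the sets as a term. Genes called over the table were 606 (DESeq2) and 629 (sets as a term) for the difference, and 134 to 330 with a library left out. In October they were 2763 (only the groups), 2071 (low libraries), 4451 (high libraries), 4483 (DESeq2) and 5419 (sets as a term), and 3394 to 4447 with a library left out. Between controls they were 565 (only the groups), 2205 (sets as a term) and 2063 (DESeq2), and 704 to 2410 with a library left out. Between exposed groups they were 5026 (sets as a term), and 1692 to 3225 with a library left out. In June they were 3666 (only the groups), 3681 (sets as a term) and 3097 (DESeq2), and 1826 to 2800 with a library left out. The cause of these moves was not tested. Of 3954 gene values under alternatives, 230 lost a call, 18 gained a call and 31 reversed in sign. Of the 31 reversed values, 0 had an adjusted p under 0.05. Reversed were the difference of paics (-0.037 with library totals, -0.038 with the sets as a term), impdh1a between exposed groups (0.006, sets as a term), and impdh2 (-0.188), ppat (-0.035) and gart (0.037) in the high October libraries. With a library left out, ranges crossed zero for adsl (-0.001 to 0.066) and gart (-0.063 to 0.010) in June. In October they did so for gmps (-0.098 to 0.003), impdh1a (-0.020 to 0.065), impdh2 (-0.021 to 0.171), paics (-0.149 to 0.009) and ppat (-0.023 to 0.042). Between controls they did so for atic (-0.184 to 0.012) and gmps (-0.034 to 0.068), for the difference of impdh2 (-0.167 to 0.025) and paics (-0.059 to 0.095), and between exposed groups for impdh1a (-0.038 to 0.043). Of 696 list counts, 108 moved by over 1.5 times. The block could not be fitted between campaigns.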
